A study of Mus musculus with 23 samples.

Results

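The genes described here are 37 mouse genes of the interferon response and of antiviral defence, found by name among the 23725 lines of the deposited count table. They comprise 3 RNA sensors, 5 transcription factors, 14 effectors, 7 genes of the ubiquitin, ISG15 and ADP-ribosylation group, 7 genes of antigen presentation and the surface lectin Siglec1. The list was drawn up because Siglec1, Xaf1, Slfn5, Herc6 and Dtx3l varied between the groups of this study. These 5 are therefore described without a test, and the other 32 were tested.

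RNA was sequenced from the extra-embryonic tissue (ExE) and the epiblast (E) of mouse embryos at E6.25, just after implantation. The embryos were homozygous (Tet1gt/gt), heterozygous (Tet1gt/wt) or wild type for a gene trap in Tet1, which encodes an enzyme that oxidises 5-methylcytosine in DNA, and the comparisons ask what the trap changes in each lineage. Each library holds the combined lysates of 6 or more embryos from 2 to 3 litters, sorted by a genotype read after collection. The groups were ExE Tet1gt/gt (3 libraries), ExE Tet1gt/wt (4), ExE wild type (4), E Tet1gt/gt (4), E Tet1gt/wt (4) and E wild type (4). All embryos were of the same age, no treatment is named, and the labels give no strain or sex. The p-values measure the spread between these pools, each of which averages several embryos and, for most numbers, shares litters with the pool of the other tissue.

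The libraries held 4911944 to 9494240 counts, so that 3 counts, the upper limit that a count of 0 allows, stand for 0.312 to 0.681 CPM (counts scaled by library total and TMM factor) and cover counting error only. Tet1 itself was at 21.5 to 37.7 CPM in ExE Tet1gt/gt, 39.4 to 57.2 CPM in ExE Tet1gt/wt and 77.0 to 109.9 CPM in ExE wild type. In E it was at 54.9 to 112 CPM in Tet1gt/gt, 66.0 to 148 CPM in Tet1gt/wt and 127 to 197 CPM in wild type. The tissue labels fitted the markers, since 10 markers of extra-embryonic ectoderm and trophoblast averaged 7.06 to 7.93 log2 CPM in ExE and 0.68 to 5.58 in E, and 10 epiblast markers averaged 3.72 to 6.73 in ExE and 7.71 to 8.16 in E. In 3 libraries, ExE Tet1gt/gt replicate 3, E Tet1gt/gt replicate 3 and E Tet1gt/wt replicate 4, short and GC-rich transcripts read higher, with a slope on log2 transcript length of -0.51 to -0.45 against -0.11 to 0.14 in the other 20. These 3 libraries are named beside many of the results that they bear on, but not beside all.

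Interferons are secreted proteins that cells release when sensors such as RIG-I (encoded by Ddx58) and MDA5 (Ifih1) meet viral RNA. Through JAK kinases, STAT2 and IRF9 they switch on interferon-stimulated genes, whose products block viral entry, translation and assembly and raise the display of peptides on MHC class I. Pluripotent cells are known to answer interferon weakly while keeping some of these genes, such as the Ifitm genes, active without it.

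Promoter sequences are shown for 5 members whose levels differed between tissues or between libraries, because the interferon-stimulated response element (ISRE), to which STAT2 and IRF9 bind, lies in such windows. Each window runs from 250 bases before to 50 bases after a RefSeq transcription start on GRCm38.p6, is written 5′ to 3′ on the gene's strand, and has matches to the ISRE letters, GAAA followed after any 2 bases by GAAA again, in capitals.
Ifitm2 (chr7:140955912-140956211, minus strand): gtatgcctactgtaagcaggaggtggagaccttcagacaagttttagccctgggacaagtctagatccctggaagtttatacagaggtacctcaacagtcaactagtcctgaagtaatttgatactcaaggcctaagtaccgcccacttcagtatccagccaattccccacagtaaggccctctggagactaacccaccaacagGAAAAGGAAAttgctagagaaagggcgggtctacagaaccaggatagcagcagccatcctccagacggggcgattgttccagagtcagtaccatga
Ifitm3 (chr7:141010695-141010994, minus strand): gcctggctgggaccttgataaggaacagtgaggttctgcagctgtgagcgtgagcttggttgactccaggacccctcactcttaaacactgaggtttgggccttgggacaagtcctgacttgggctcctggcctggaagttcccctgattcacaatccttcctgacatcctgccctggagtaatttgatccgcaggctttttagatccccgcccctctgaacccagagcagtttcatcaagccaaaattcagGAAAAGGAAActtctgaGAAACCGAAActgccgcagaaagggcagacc
B2m (chr2:122147437-122147736, plus strand): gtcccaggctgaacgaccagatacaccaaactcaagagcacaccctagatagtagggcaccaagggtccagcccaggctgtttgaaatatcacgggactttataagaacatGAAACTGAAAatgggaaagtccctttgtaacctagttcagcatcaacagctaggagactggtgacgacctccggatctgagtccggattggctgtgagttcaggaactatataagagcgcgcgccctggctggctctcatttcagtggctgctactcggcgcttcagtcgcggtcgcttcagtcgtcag
Oas1a (chr5:120907476-120907775, minus strand): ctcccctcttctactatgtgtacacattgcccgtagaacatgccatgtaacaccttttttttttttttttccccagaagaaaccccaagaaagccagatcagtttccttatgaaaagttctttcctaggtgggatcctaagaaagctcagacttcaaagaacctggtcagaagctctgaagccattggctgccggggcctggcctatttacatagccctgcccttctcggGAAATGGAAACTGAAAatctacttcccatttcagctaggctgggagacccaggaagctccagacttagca
Slfn5 (chr11:82951852-82952151, plus strand): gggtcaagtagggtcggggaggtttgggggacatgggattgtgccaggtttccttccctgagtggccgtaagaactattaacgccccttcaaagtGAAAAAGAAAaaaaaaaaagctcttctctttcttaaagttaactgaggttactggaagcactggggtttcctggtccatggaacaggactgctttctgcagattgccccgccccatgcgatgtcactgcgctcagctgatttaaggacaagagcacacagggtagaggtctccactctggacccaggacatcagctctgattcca
The ISRE letters, on either strand, were found in 13 of the 30 members with a window and in 3.44% of all 32851 windows. The 13 were B2m, Bst2, Ddx58, Ifih1, Ifit1, Ifit3, Ifitm2, Ifitm3, Isg15, Oas1a, Rsad2, Slfn5 and Stat2. All 5 windows printed above hold a match, but those of Irf1, Ifit2, Ifitm1, Trim25, Tap1 and Oasl2, which also differed between tissues, do not. The letters TTCNNNGAA of the gamma-activated site were found in 7 members and in 8.30% of all windows, and in Bst2 and Ifitm3 they overlapped an ISRE match. In Oas1a the ISRE matches overlap each other, from 20 to 5 bases before the start, and in Ifitm2 the match lies from 46 to 37 bases before it. A match in these letters is not a bound site. Dhx58, Usp18, Parp9, Parp14, Tap2, Tapbpl and Siglec1 had no window.

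Most classical interferon-induced genes were close to the counting floor in both tissues. Ifih1, Irf7, Isg20, Ifit1, Ifit3, Rsad2, Slfn2, Isg15, Usp18 and Psmb9 stayed under 4 CPM in all 23 libraries, the highest value being 3.12 CPM of Ifit3 in E Tet1gt/gt replicate 2. Isg15, the ubiquitin-like modifier that gives the ISG15 system its name, had 6 counts in all 11 ExE libraries together and 11 counts in the 12 E libraries. Ifit1, which binds viral RNA lacking cap methylation, and Rsad2, which encodes viperin, had 0 counts in all ExE libraries, against 14 and 27 counts over the E libraries. None of 21 interferon and interferon-like ligand genes passed the filter on low counts in either tissue.

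At the other end, 16 members were counted in all 23 libraries and 5 of them reached 10 CPM in each. These 5 were Irf1 and Irf3, which encode transcription factors, Bst2, which encodes tetherin, a protein that holds budding virus at the cell surface, Trim25, a ubiquitin ligase that acts on RIG-I, and Tapbp, which encodes tapasin of the peptide-loading complex. Per kilobase of the longest transcript, the highest mean levels in ExE were 61.0 CPM per kilobase for Bst2, 38.3 for Ifitm2 and 23.3 for B2m. In E they were 174 CPM per kilobase for Ifitm2, 71.1 for Bst2 and 26.3 for Irf1. The means of both tissues include the 3 libraries in which short and GC-rich transcripts read higher. The filter for testing was passed by 25 members in ExE, 27 in E and 30 in the fit of all libraries.

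**Figure D1:**
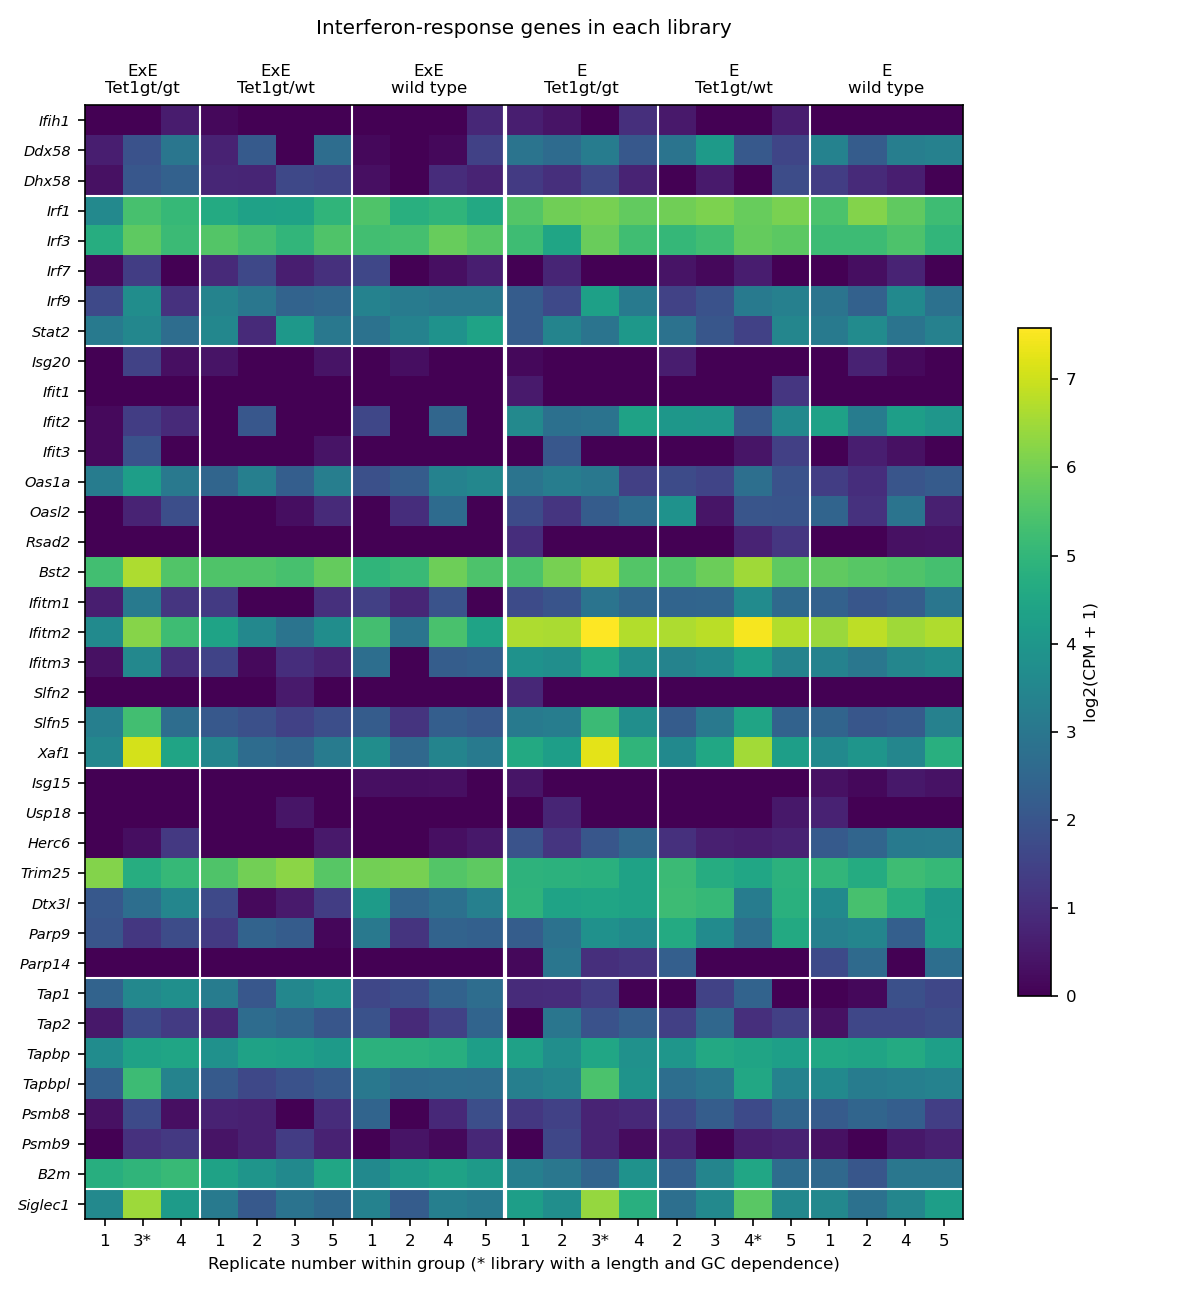
Level of each of the 37 members (rows, grouped by role) in each of the 23 libraries (columns, grouped by tissue and genotype) as log2(CPM + 1), with an asterisk at the 3 libraries in which short and GC-rich transcripts read higher. Ifitm2, Ifitm3, Ifit2 and Dtx3l are brighter in E than in ExE, Trim25 and B2m are brighter in ExE, and Siglec1, Xaf1, Slfn5 and Tapbpl are brightest in the marked libraries.

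Many members differed between the tissues. Of the 32 members, 25 were tested between tissues, and 4 were higher and 10 lower in ExE than in E (edgeR adjusted p under 0.05, mean over the 3 genotypes). Over all 13593 genes the same test called 46.1%, with 22.1% higher and 23.9% lower in ExE, so a call between these tissues was common among genes of any kind, and the members' share of 14 in 25 is read against that. The median log2 fold change was -0.20 over the tested members and -0.02 over all genes. Because these are bulk tissues, fewer cells of a type and less RNA per cell cannot be told apart.

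The interferon-induced transmembrane genes, whose small membrane proteins block the entry of enveloped viruses, were lower in ExE. They lie together on chromosome 7 (Ifitm2 from 140954837 to 140955987 and Ifitm3 from 141009586 to 141010770, both on the minus strand of GRCm38, and Ifitm1 from 140967221 to 140969825 on the plus strand). Ifitm2 had 6.48, 19.9 and 72.4 CPM as its lowest, median and highest value in the 11 ExE libraries, against 85.8, 102 and 190.3 CPM in the 12 E libraries. It was the only member whose tissues did not overlap in any library, and of all genes 7.69% did not overlap in either direction and 3.43% did not while lower in ExE. Relative to E this was a log2 fold change of -2.27 ± 0.29 (SE; adjusted p = 1.84e-06 by edgeR), and it passed the threshold within each genotype. Ifitm3 had 0, 1.01 and 10.7 CPM in ExE, against 7.05, 11.6 and 23.2 CPM in E, and Ifitm1 had 0, 1.07 and 7.49 CPM against 2.35, 4.48 and 11.7 CPM. The highest ExE value of all 3 Ifitm genes was in ExE Tet1gt/gt replicate 3. The log2 fold changes were -2.40 ± 0.52 for Ifitm3 (edgeR adjusted p = 0.000679) and -1.82 ± 0.60 for Ifitm1 (0.0167), and Ifitm3 stood at -3.08 without the 3 libraries and at -3.10 with the pool number as a block. Ifitm1 and Ifitm2 share 97.5% and 97.0% of their letters with other loci over 319 and 432 bases, so their counts could be divided among copies.

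Ifit2, whose product binds AU-rich viral RNA, was also lower in ExE. Its lowest, median and highest values were 0, 0.135 and 4.65 CPM in ExE, where 5 libraries had no count, against 3.14, 12.9 and 19.8 CPM in E. The ranges overlapped because ExE wild-type replicate 4 and ExE Tet1gt/wt replicate 2 lay above 1 E library. That library was E Tet1gt/wt replicate 4, at 3.14 CPM, 1 of the 3 libraries with the length and GC dependence. The next lowest E value was 5.94 CPM. On the log2 scale the change was -3.57 ± 0.74 (edgeR adjusted p = 0.000405), and -5.43 without ExE Tet1gt/wt replicate 2. Ifit1 and Ifit3, its neighbours on chromosome 19, stayed near the floor in E as well.

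Among the sensors, Ddx58 was lower in ExE, with 0, 0.658 and 6.92 CPM, against 1.97, 6.55 and 16.6 CPM in E. By edgeR it changed by -2.09 ± 0.63 on the log2 scale (adjusted p = 0.00937), and by -2.89 without ExE wild-type replicate 5. Dhx58, which encodes LGP2, a modulator of the other sensors, gave 0.40 ± 0.74 on that scale (edgeR adjusted p = 0.693), and Ifih1 did not pass the filter. Irf1, an activator of antigen presentation genes, had 10.8, 26.6 and 44.1 CPM in ExE, against 36.3, 58.3 and 71.1 CPM in E. The ranges overlap between 36.3 and 44.1 CPM, and the change was -1.05 ± 0.18 on the log2 scale (edgeR adjusted p = 6.54e-05). Irf3, Irf9 and Stat2 gave log2 fold changes of 0.05 ± 0.16, -0.06 ± 0.40 and 0.33 ± 0.36, none past the threshold (edgeR adjusted p = 0.49 to 0.92).

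Antigen presentation was split. B2m, the light chain of MHC class I, had 11, 19.5 and 33.7 CPM in ExE, against 3.08, 7.07 and 21.4 CPM in E. The E value of 21.4 CPM was that of Tet1gt/wt replicate 4, and the next highest E value was 13.5 CPM. The log2 fold change was 1.35 ± 0.26 (edgeR adjusted p = 0.000187). Tap1, a subunit of the transporter that carries peptides into the endoplasmic reticulum, had 2.04, 5.54 and 13.1 CPM in ExE, against 0, 0.917 and 4.36 CPM in E, where 4 libraries had no count. The change was 2.50 ± 0.67 on the log2 scale (edgeR adjusted p = 0.00414). Tap2, the other subunit, missed the threshold (log2 fold change -0.06 ± 0.56, edgeR adjusted p = 0.945). Tapbpl, which encodes TAPBPR, an editor of MHC class I peptides, was lower in ExE by the same test (-0.91 ± 0.34, edgeR adjusted p = 0.0305), but missed the threshold without E Tet1gt/wt replicate 4, E Tet1gt/gt replicate 3, ExE Tet1gt/gt replicate 1 or ExE Tet1gt/gt replicate 4 (edgeR adjusted p up to 0.0915). Tapbp, Psmb8 and Psmb9, the last 2 being immunoproteasome subunits, did not pass it (edgeR adjusted p = 0.101 to 0.813).

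The ADP-ribosylation genes Parp9 and Parp14 were lower in ExE. They lie next to Dtx3l on chromosome 16, and Parp9 and Dtx3l share 458 bases of exon on opposite strands, so that their counts are partly uncertain. Parp9, which works in a complex with the ubiquitin ligase DTX3L, had 0.107, 2.97 and 7.44 CPM in ExE, against 3.70, 10.6 and 23.6 CPM in E. The change was -1.97 ± 0.43 on the log2 scale (edgeR adjusted p = 0.000631). Parp14 had 0 counts in all 11 ExE libraries, against 0, 1.11 and 6.87 CPM in E, where 4 of 12 libraries also had no count. It was at least 63.5-fold lower in ExE, taken against 3 counts over the tissue (edgeR adjusted p = 0.00159), but without E Tet1gt/wt replicate 2, which leaves all remaining Tet1gt/wt libraries at 0, the fit gave an adjusted p of 0.99983. Trim25 was higher in ExE, with 25.7, 50.8 and 75.0 CPM, against 19.6, 28.4 and 36.8 CPM in E (log2 fold change 0.87 ± 0.16, edgeR adjusted p = 0.00011). Its lowest ExE value was that of ExE Tet1gt/gt replicate 3.

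The oligoadenylate synthetase family went both ways. Oas1a, whose product makes the signal that activates RNase L, was higher in ExE, with 2.64, 8.10 and 17.9 CPM, against 0.991, 2.87 and 8.23 CPM in E (log2 fold change 1.13 ± 0.34, edgeR adjusted p = 0.0091). Oas1a shares 97.6% of its letters with Oas1g over 1861 bases, so its counts may include reads of that copy. Oasl2 was lower in ExE, with 0, 0.224 and 5.24 CPM, against 0.346, 2.93 and 13.4 CPM in E (-2.20 ± 0.83, edgeR adjusted p = 0.0348). That call was lost in 11 of 28 alternative settings, among them without the 3 libraries and without any 1 of 10 single libraries of either tissue, with edgeR adjusted p-values from 0.00761 to 0.0913. Bst2 had 30.2 to 98.3 CPM in ExE, against 39.3 to 96.5 CPM in E, with a log2 fold change of -0.20 ± 0.18 which missed the threshold (edgeR adjusted p = 0.387). Its highest value in each tissue was that of Tet1gt/gt replicate 3, and outside the 3 libraries it reached 63.9 CPM at most.

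**Figure D2:**
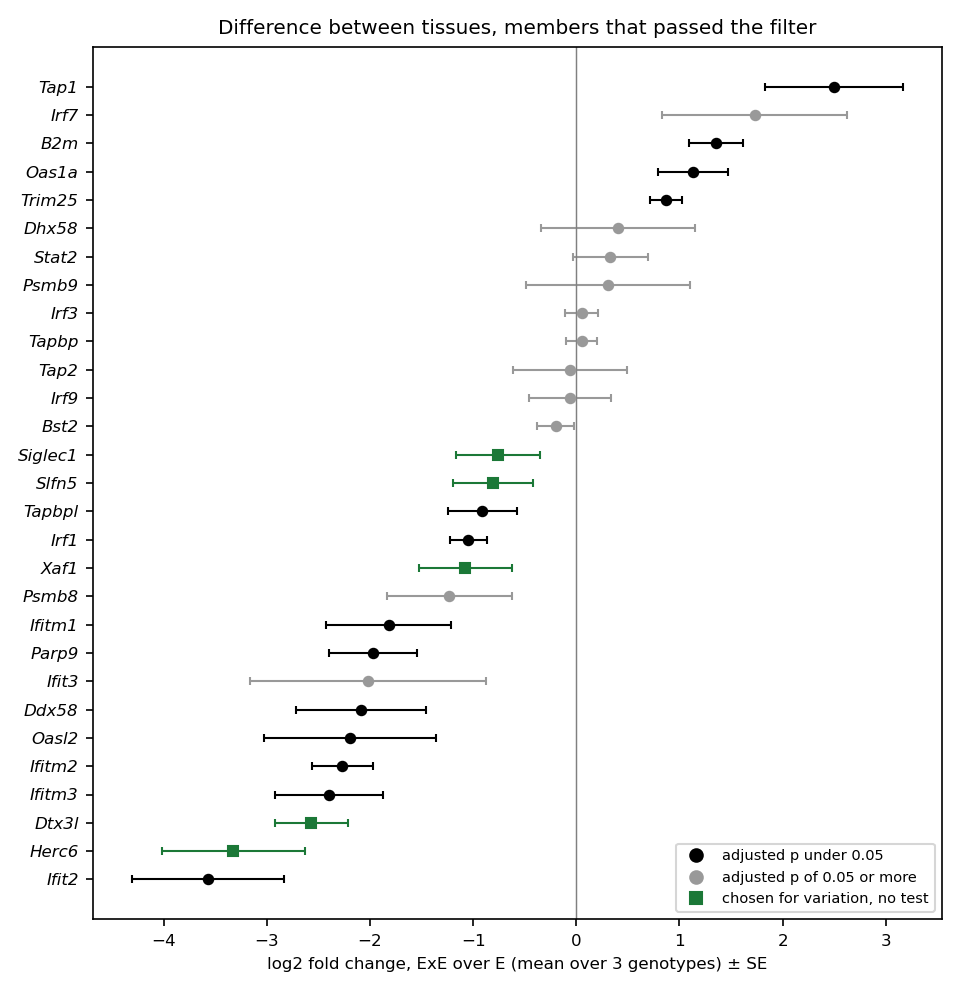
Log2 fold change of ExE over E, mean over the 3 genotypes, with its standard error for 29 of the 30 members that passed the filter in the fit of all libraries (Parp14, with no count in ExE, is not drawn). Tap1, B2m, Oas1a and Trim25 lie right of 0 and Ifit2, the Ifitm genes, Ddx58 and Parp9 lie left of it, past the threshold of 0.05 (black); grey members missed it, and green squares are the members chosen for their variation, not tested.

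Within single genotypes the same tissue test called 3 of the 32 members in Tet1gt/gt (16.8% of all genes), 9 in Tet1gt/wt (26.9%) and 5 in wild type (17.3%). Irf1, Ifitm2 and B2m were the 3 in Tet1gt/gt, and Ddx58, Ifitm2, Trim25, Parp14 and B2m were the 5 in wild type. The count fell to 2 or 3 in wild type without any 1 of its libraries but E replicate 4. In Tet1gt/gt it was 1 without E replicate 3 or 4 or ExE replicate 1 or 4, and 5 without ExE replicate 3. Whether a tissue difference itself differed between genotypes is the interaction test given with the genotypes. The ExE libraries also differed in how much epiblast marker RNA they held. In the 5 ExE libraries with the highest epiblast marker level (5.63 to 6.73 log2 CPM), Ifitm2 was at 19.98 to 72.4 CPM and Dtx3l at 5.68 to 16.8 CPM. In the other 6 (3.72 to 5.03 log2 CPM), Ifitm2 was at 6.48 to 19.9 CPM and Dtx3l at 0.144 to 4.43 CPM. The values of the other members set side by side in this way, Ifitm3, Ifit2, Irf1, Ddx58 and Parp9, overlapped between these libraries (Ifitm3 at 1.01 to 10.7 CPM against 0 to 1.87 CPM). The part of epiblast cells in these ExE levels was not tested.

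**Figure D3:**
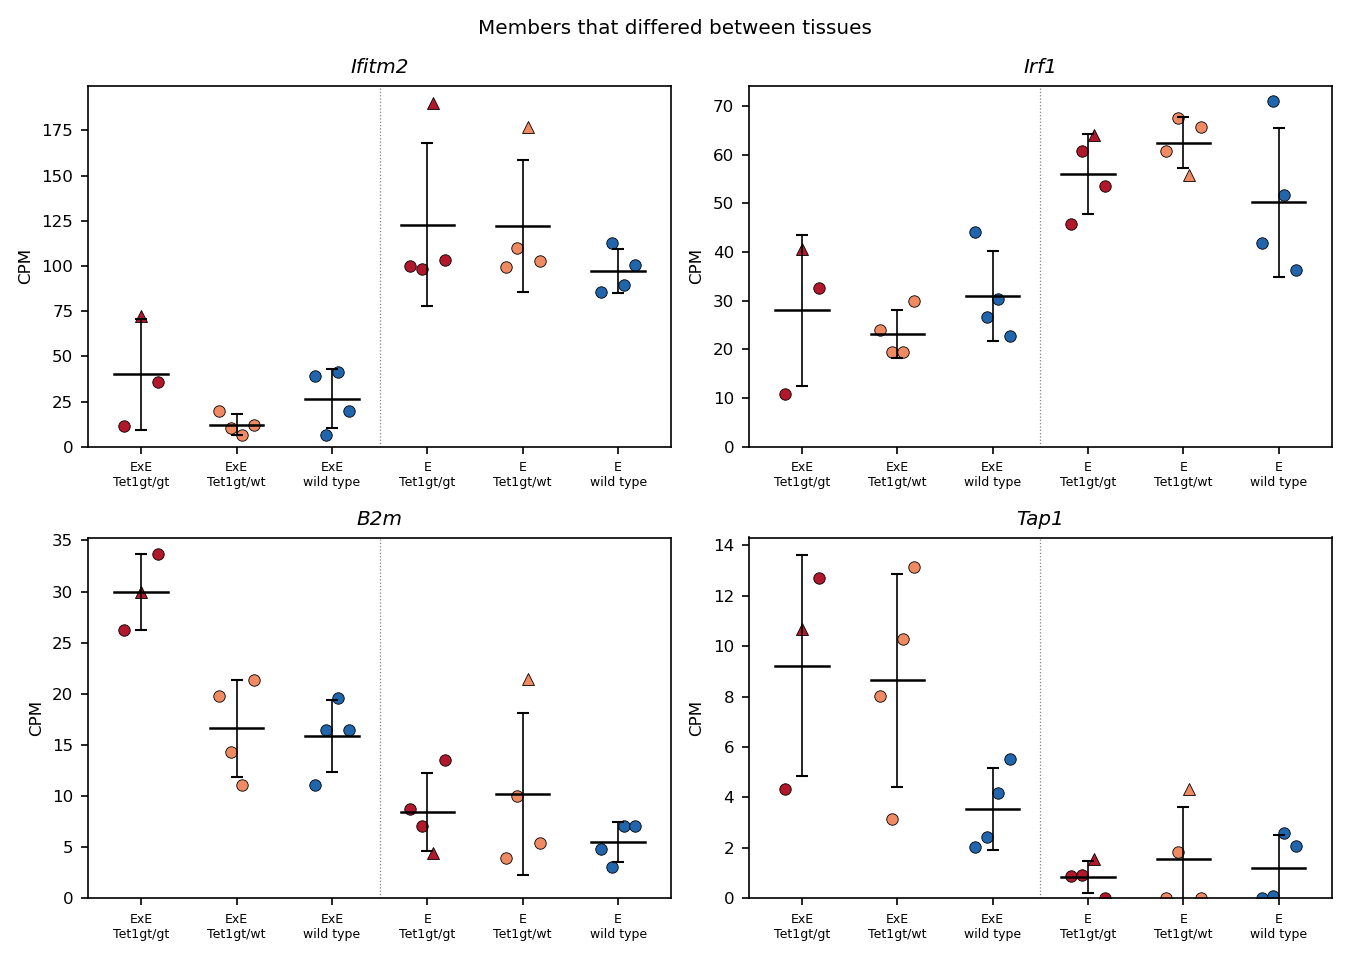
CPM of Ifitm2, Irf1, B2m and Tap1 in each library, with the mean and SD of each group (black); triangles are the 3 libraries in which short and GC-rich transcripts read higher. All 11 ExE values of Ifitm2, the highest being 72.4 CPM, lie below all 12 E values, the lowest being 85.8 CPM, whereas Irf1, B2m and Tap1 overlap between tissues.

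Between Tet1 genotypes, none of the 32 members passed the threshold in either tissue. In simulated counts for Tet1gt/gt against wild type, the edgeR step recovered 34% of 2-fold changes in each tissue. It recovered 91% of 4-fold changes in ExE and 93% in E, all in genes with a mean of 10 CPM or more. A missing call therefore does not exclude a 2-fold change, least of all for members at lower levels. In ExE, 0 of 21 tested members were called for Tet1gt/gt against wild type, for Tet1gt/wt against wild type and for Tet1gt/gt against Tet1gt/wt, and 0.0% of all 12341 genes were called (edgeR). In E, 0 of 22 tested members were called in each of the same comparisons, where 0.0161% of 12403 genes (2 genes) were called for Tet1gt/gt against wild type and 0.0% for the others. DESeq2 also called 0 members in all 6 comparisons. At an unadjusted p under 0.05 there were 3 members for Tet1gt/gt (7.57% of all genes) and 1 for Tet1gt/wt (4.12%) in ExE against wild type, and 2 for Tet1gt/gt (4.19%) and 0 for Tet1gt/wt (2.4%) in E. For Tet1gt/gt against Tet1gt/wt there were 3 members in ExE (6.47% of all genes) and 1 in E (2.48%). The test of whether a genotype effect differed between the tissues passed the threshold for 0 of 25 tested members for Tet1gt/gt and for Tet1gt/wt, by edgeR and by DESeq2, with 1 member at an unadjusted p under 0.05 in each. Those members were Ddx58 (3.18 ± 1.53) for Tet1gt/gt and Ifitm2 (-1.45 ± 0.67, edgeR adjusted p = 0.943) for Tet1gt/wt, named after their values were seen.

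In ExE the smallest p-values against wild type among the tested members were those of B2m and Tapbpl for Tet1gt/gt, and of Tap1 and Tapbp for Tet1gt/wt. B2m was at 26.2, 30.0 and 33.7 CPM in the ExE Tet1gt/gt libraries, 11.1, 14.4, 19.8 and 21.3 CPM in Tet1gt/wt and 11, 16.5, 16.5 and 19.5 CPM in wild type. All Tet1gt/gt values lay above all others, and the log2 fold change over wild type was 0.91 ± 0.30 (edgeR adjusted p = 0.512). B2m was the 1 of 21 tested members whose Tet1gt/gt libraries all lay above wild type, as those of 3.02% of all genes did. Maternal decidua markers were also above wild type in this group. Their summed level was 19.2, 263 and 37.6 CPM in the ExE Tet1gt/gt libraries, in order of rising B2m. The 263 CPM was that of replicate 3, 1 of the 3 libraries with the length and GC dependence. It was 6.36 to 27.7 CPM in Tet1gt/wt and 3.32 to 17.7 CPM in wild type. The 27.7 CPM was that of Tet1gt/wt replicate 3, where B2m was at 11.1 CPM. Of these markers, Prl8a2 and Des had log2 fold changes of 4.20 ± 1.27 and 2.46 ± 0.76 over wild type (both edgeR adjusted p = 0.512). The part of decidual RNA in the B2m values was not tested. Tap1 was at 4.32, 10.7 and 12.7 CPM in ExE Tet1gt/gt, 3.16, 8.01, 10.3 and 13.1 CPM in Tet1gt/wt and 2.04, 2.44, 4.17 and 5.54 CPM in wild type. The ranges overlap, and the log2 fold changes over wild type were 1.37 ± 0.57 for Tet1gt/gt (edgeR adjusted p = 0.597) and 1.31 ± 0.53 for Tet1gt/wt (0.9998). Tapbp was at 13.4, 16.5, 19.0 and 19.7 CPM in ExE Tet1gt/wt, against 18, 26.1, 27.9 and 28.4 CPM in wild type (-0.53 ± 0.27, edgeR adjusted p = 0.9998).

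In E, Psmb8 was at 0.686, 0.846, 1.35 and 1.77 CPM in Tet1gt/gt, 2.24, 2.26, 3.69 and 4.60 CPM in Tet1gt/wt and 1.62, 3.55, 3.80 and 4.51 CPM in wild type. The Tet1gt/gt and wild-type ranges overlap by a little, and the log2 fold change was -1.50 ± 0.61 (edgeR adjusted p = 0.961). Oas1a was at 1.69, 6.61, 7.21 and 8.23 CPM in E Tet1gt/gt, against 0.991, 1.58, 2.98 and 3.54 CPM in wild type. One Tet1gt/gt library lay inside the wild-type range, and the log2 fold change was 1.39 ± 0.63 (edgeR adjusted p = 0.961). B2m and Irf1, the smallest p-values for E Tet1gt/wt against wild type, gave 0.88 ± 0.54 and 0.32 ± 0.22 (both edgeR adjusted p = 0.982). The B2m change rests largely on E Tet1gt/wt replicate 4, at 21.4 CPM against 3.94 to 10.0 CPM in the rest of its group. Without the 3 libraries the B2m mean was 6.45 CPM in E Tet1gt/wt and 5.52 CPM in wild type. Over the alternatives run, its log2 fold change ranged from 0.23 to 1.15. Ifitm2, the member with the highest level per kilobase in E, was at 98.2, 99.8, 103 and 190.3 CPM in E Tet1gt/gt, 99.4, 103, 109.9 and 177 CPM in Tet1gt/wt and 85.8, 89.3, 101 and 113 CPM in wild type. Ifitm3 was the 1 of 22 tested members whose E Tet1gt/gt values, 12.3 to 23.2 CPM, all lay above wild type, 7.05 to 12 CPM, as 2.28% of all genes did. The highest Ifitm2 and Ifitm3 values in both mutant groups of E were those of the libraries with the length and GC dependence.

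Siglec1, Xaf1, Slfn5 and the tested member Tapbpl shared a pattern across the 23 libraries. Siglec1 encodes sialoadhesin, a lectin of macrophages that binds sialic acid, Xaf1 a partner of the apoptosis inhibitor XIAP, and Slfn5 a member of the Schlafen family. Each was highest in the 3 libraries ExE Tet1gt/gt replicate 3, E Tet1gt/gt replicate 3 and E Tet1gt/wt replicate 4. Siglec1 was at 86.9, 83.1 and 49.1 CPM in these, against 3.30 to 26.6 CPM in the other 20. Xaf1 was at 136, 154 and 91.3 CPM, against 4.58 to 30.1 CPM. Slfn5 was at 38.1, 35.0 and 20.4 CPM, against 1.22 to 12.5 CPM, and Tapbpl at 35.4, 42.2 and 22.3 CPM, against 2.15 to 13.9 CPM. Bst2 was likewise above all others, at 89.2 to 98.3 CPM against 30.2 to 63.9 CPM. Of 12415 genes with a mean of 1 CPM or more, 9.4% had all 3 libraries above the other 20. Siglec1, Xaf1 and Slfn5 were put on the list for their variation, so nothing is read from the number of members that did.

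The group values of Siglec1, Xaf1 and Slfn5 rest on these libraries in part. Siglec1 was at 10.8, 16.9 and 86.9 CPM in ExE Tet1gt/gt, 3.30, 5.02, 6.37 and 7.57 CPM in ExE Tet1gt/wt and 3.65, 7.70, 8.70 and 9.24 CPM in ExE wild type. All ExE Tet1gt/gt values lay above wild type, also when the highest is set aside. All 3 libraries did so for 3.02% of all genes, and nothing is read from this for a gene chosen for its variation. The log2 fold change of Siglec1 in ExE Tet1gt/gt over wild type was 2.33, and 0.92 without the 3 libraries, with 2 libraries left in the mutant group. In E it was at 12.5, 18.2, 26.6 and 83.1 CPM in Tet1gt/gt, 5.75, 10.6, 10.8 and 49.1 CPM in Tet1gt/wt and 6.05, 10.2, 10.5 and 18.2 CPM in wild type. The E fold changes were 1.64 for Tet1gt/gt and 0.76 for Tet1gt/wt, and 0.77 and -0.30 without the 3 libraries.

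Xaf1 was at 10.4, 20.4 and 136 CPM in ExE Tet1gt/gt, 4.58, 5.45, 7.90 and 9.88 CPM in Tet1gt/wt and 4.87, 7.56, 9.77 and 12.2 CPM in wild type. The lowest Tet1gt/gt library lay inside the wild-type range. The log2 fold change of Xaf1 was 2.63 in ExE Tet1gt/gt and 1.85 in E Tet1gt/gt over wild type, and 0.84 and 0.62 without the 3 libraries. Slfn5 was at 5.54, 8.64 and 38.1 CPM in ExE Tet1gt/gt, 1.79, 2.56, 2.58 and 3.29 CPM in Tet1gt/wt and 1.22, 3.24, 3.60 and 3.81 CPM in wild type. Its Tet1gt/gt libraries all lay above both other groups. That separation from wild type was shown by 3.02% of all genes, and nothing is read from it for a gene chosen for its variation. Slfn5 shares 559 bases of exon with the antisense gene Slfn5os. Its log2 fold change was 2.51 in ExE Tet1gt/gt and 1.64 in E Tet1gt/gt, and 1.26 and 0.91 without the 3 libraries. Tapbpl, which was tested, was at 4.05, 9.56 and 35.4 CPM in ExE Tet1gt/gt, against 5.43, 5.54, 5.72 and 7.20 CPM in wild type (log2 fold change 1.40 ± 0.57, edgeR adjusted p = 0.59). Without the 3 libraries its means were 6.81 CPM in ExE Tet1gt/gt and 5.97 CPM in wild type. Over the alternatives run, that log2 fold change ranged from 0.19 to 1.85. In ExE Tet1gt/wt Tapbpl was at 2.15, 2.79, 3.40 and 3.41 CPM, all below wild type, a separation in this direction shown by 2.07% of all genes.

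Markers of macrophages, the cells in which Siglec1 is best known, and of other cell types were also compared between the libraries. The summed level of 13 macrophage and leukocyte markers was 12.3 CPM in ExE Tet1gt/gt replicate 3, 5.66 CPM in E Tet1gt/gt replicate 3 and 9.06 CPM in E Tet1gt/wt replicate 4, and 1.06 to 18.2 CPM over all 23 libraries. In E only Tet1gt/gt replicate 1, at 9.64 CPM, was above these, and its Siglec1 value was 18.2 CPM. In ExE only Tet1gt/wt replicate 5 (18.2 CPM) and wild-type replicate 4 were, with Siglec1 at 5.02 and 8.70 CPM. E Tet1gt/wt replicate 3 had a marker sum of 5.30 CPM, close to that of E Tet1gt/gt replicate 3, and Siglec1 at 10.8 CPM. The libraries high in Siglec1 were among the higher ones of their tissue for these markers, but none had the highest sum of its tissue. Aif1 had 0 counts in all libraries, and Ptprc, which encodes CD45, reached 0.657 CPM at most. The 10 uterine natural killer cell markers together reached 0.84 CPM at most in ExE and 4.17 CPM in E. Visceral endoderm markers summed to 20.5 to 463 CPM in ExE and 105 to 1188 CPM in E. Maternal decidua markers summed to 263 CPM in ExE Tet1gt/gt replicate 3, the ExE library in which Siglec1, Xaf1, Slfn5, Tapbpl and the Ifitm genes were highest, to 3.32 to 37.6 CPM in the other ExE libraries and to 8.85 to 48.3 CPM in E. The part of any of these cell types in the members' levels was not tested.

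The transcripts of Siglec1, Xaf1, Slfn5 and Tapbpl share a stretch of sequence. In the annotated transcripts (GENCODE M21, GRCm38) the stretch spans 179 bases in Siglec1, 194 in Xaf1, 206 in Slfn5 and 202 in Tapbpl, in the same orientation in all 4. The copies are 92.1% to 96.6% identical to each other, and in Siglec1 the stretch lies at bases 5611 to 5789 of a transcript of 5790. Other genes carry it too: at 95% identity over 75 bases or more, up to 45 genes share a base of the Siglec1 stretch, 51 of the Xaf1 stretch, 127 of the Slfn5 stretch and 97 of the Tapbpl stretch. A shorter Xaf1 transcript holds 90 bases of it, which up to 283 genes share. At that identity no other member carried this stretch, though Tapbp, Slfn5, Dtx3l, Ddx58, Irf9, Herc6 and Stat2 carried a different shared stretch. No source used here gives the counting rule for reads that map to several genes.

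Other genes that carry the stretch were compared between the same libraries, and Irf9, at 80 to 90% identity, was the 1 other member among them. Of genes with a copy in the same orientation at 93% identity or more to that of Tapbpl, 30 had a mean of 1 CPM or more, and for each the log2 CPM of the libraries named above was set against the mean of the other libraries of that tissue. The median difference over these genes was 0.86 in ExE and 0.61 in E. For 32 genes at 90 to 93% the medians were 0.56 in ExE and 0.27 in E, for 150 genes at 80 to 90% they were -0.04 and -0.07, and for all 12415 genes they were 0.05 and 0.01. In the opposite orientation the medians were -0.03 in ExE and 0.27 in E for 13 genes at 93% or more, 0.41 and 0.44 for 17 genes at 90 to 93%, and -0.23 and -0.29 for 101 genes at 80 to 90%. At 90 to 93% the E median was thus higher in the opposite than in the same orientation. The same difference was 3.56 in ExE and 2.42 in E for Siglec1, 3.97 and 2.76 for Xaf1, 3.47 and 2.16 for Slfn5, and 2.90 and 1.76 for Tapbpl. The part of the shared stretch in the members' counts was not tested.

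**Figure D4:**
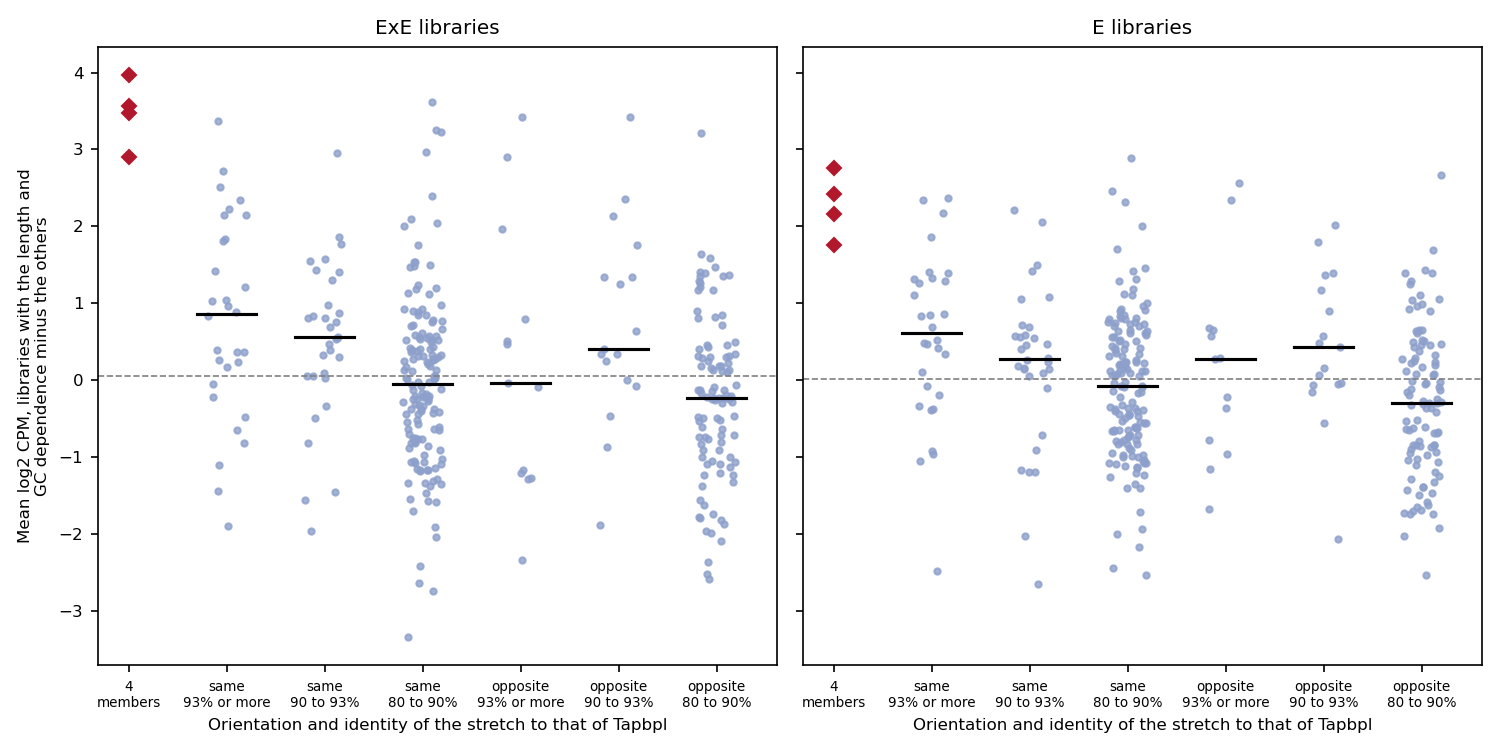
Mean log2 CPM in the libraries with the length and GC dependence minus the mean of the other libraries of that tissue, for Siglec1, Xaf1, Slfn5 and Tapbpl (red) and for other genes that carry the shared stretch (blue, 1 point per gene; black bars are medians), by orientation and identity to the copy in Tapbpl; the dashed line is the median of all 12415 genes. The 4 members lie at 2.90 to 3.97 in ExE and 1.76 to 2.76 in E. From the highest to the lowest identity, the ExE medians of same-orientation carriers are 0.86, 0.56 and -0.04. Those of the opposite orientation are -0.03, 0.41 and -0.23.

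Herc6, which in mice encodes the ligase that attaches ISG15 to its targets, varied between genotypes in E and was almost absent from ExE. In E it was at 1.25, 2.80, 3.09 and 4.74 CPM in Tet1gt/gt, 0.523, 0.576, 0.657 and 1.06 CPM in Tet1gt/wt and 3.42, 4.51, 7.60 and 7.83 CPM in wild type. The Tet1gt/wt libraries lay below all libraries of both other groups, a separation from wild type in this direction that 1.53% of all genes showed and from which nothing is read for a gene chosen for its variation, and Tet1gt/gt lay between and overlapped wild type. The log2 fold changes over wild type were -0.97 for Tet1gt/gt and -3.00 for Tet1gt/wt, so the heterozygous libraries departed further than the homozygous ones. Without the 3 libraries they were -0.998 and -2.89. Visceral endoderm markers were also lowest in E Tet1gt/wt, with a mean over 19 of them of -0.33 to 0.48 log2 CPM. That mean was 0.74 to 4.34 in Tet1gt/gt and 0.79 to 5.20 in wild type, which largely overlap. Summed, the markers overlapped between Tet1gt/wt (105 to 138 CPM) and wild type (119 to 1188 CPM). Log2 fold changes of Tet1gt/wt over wild type ran from -8.94 ± 2.04 (Afp) to 0.43 ± 0.26 (Lrp2; edgeR adjusted p = 0.982 for both). Within each group, the library with the highest marker mean had the lowest Herc6 value. These were 5.20 log2 CPM and 3.42 CPM in wild type, 4.34 and 1.25 in Tet1gt/gt, and 0.48 and 0.523 in Tet1gt/wt. The last was replicate 4, 1 of the 3 libraries with the length and GC dependence, where Herc6 had 3 counts. Tet1gt/wt replicate 2 had nearly the same marker mean, 0.46 log2 CPM, and the highest Herc6 value of its group, 1.06 CPM. The part of visceral endoderm in the Herc6 values was not tested. In ExE, Herc6 reached 1.38 CPM at most and had 21 counts in all, and 6 of 11 libraries had none.

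Dtx3l, which encodes a ubiquitin ligase that partners PARP9, also had low values in heterozygous libraries, here in ExE. In ExE it was at 3.24, 5.68 and 10.2 CPM in Tet1gt/gt, 0.144, 0.447, 1.60 and 2.19 CPM in Tet1gt/wt and 4.43, 5.96, 8.78 and 16.8 CPM in wild type. The Tet1gt/wt libraries lay below all others, where 2.07% of all genes were separated from wild type in this direction, and nothing is read from this for a gene chosen for its variation. The log2 fold changes over wild type were -0.50 for Tet1gt/gt and -2.98 for Tet1gt/wt. In E it was at 19.8, 19.99, 21.1 and 29.3 CPM in Tet1gt/gt, 8.01, 27.3, 32.5 and 35.3 CPM in Tet1gt/wt and 11.2, 16.4, 25.8 and 40.2 CPM in wild type, with fold changes of -0.04 and 0.15. The 8.01 CPM was that of replicate 4, 1 of the 3 libraries with the length and GC dependence. Without these 3 the Dtx3l fold changes in E were -0.02 and 0.44. Its neighbour Parp9 was at 0.107, 1.43, 3.58 and 4.31 CPM in ExE Tet1gt/wt, against 1.22, 4.05, 4.29 and 7.44 CPM in wild type, and these ranges overlap (-0.82 ± 0.86, edgeR adjusted p = 0.9998). All 4 ExE Tet1gt/wt libraries were among the 6 ExE libraries of low epiblast marker level described above. The others of those 6 were wild-type replicate 2 (3.80 log2 CPM) and Tet1gt/gt replicate 1 (4.76 log2 CPM). Their Dtx3l values, 4.43 and 3.24 CPM, lay above all Tet1gt/wt values. The part of epiblast cells in the Dtx3l values was not tested.

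**Figure D5:**
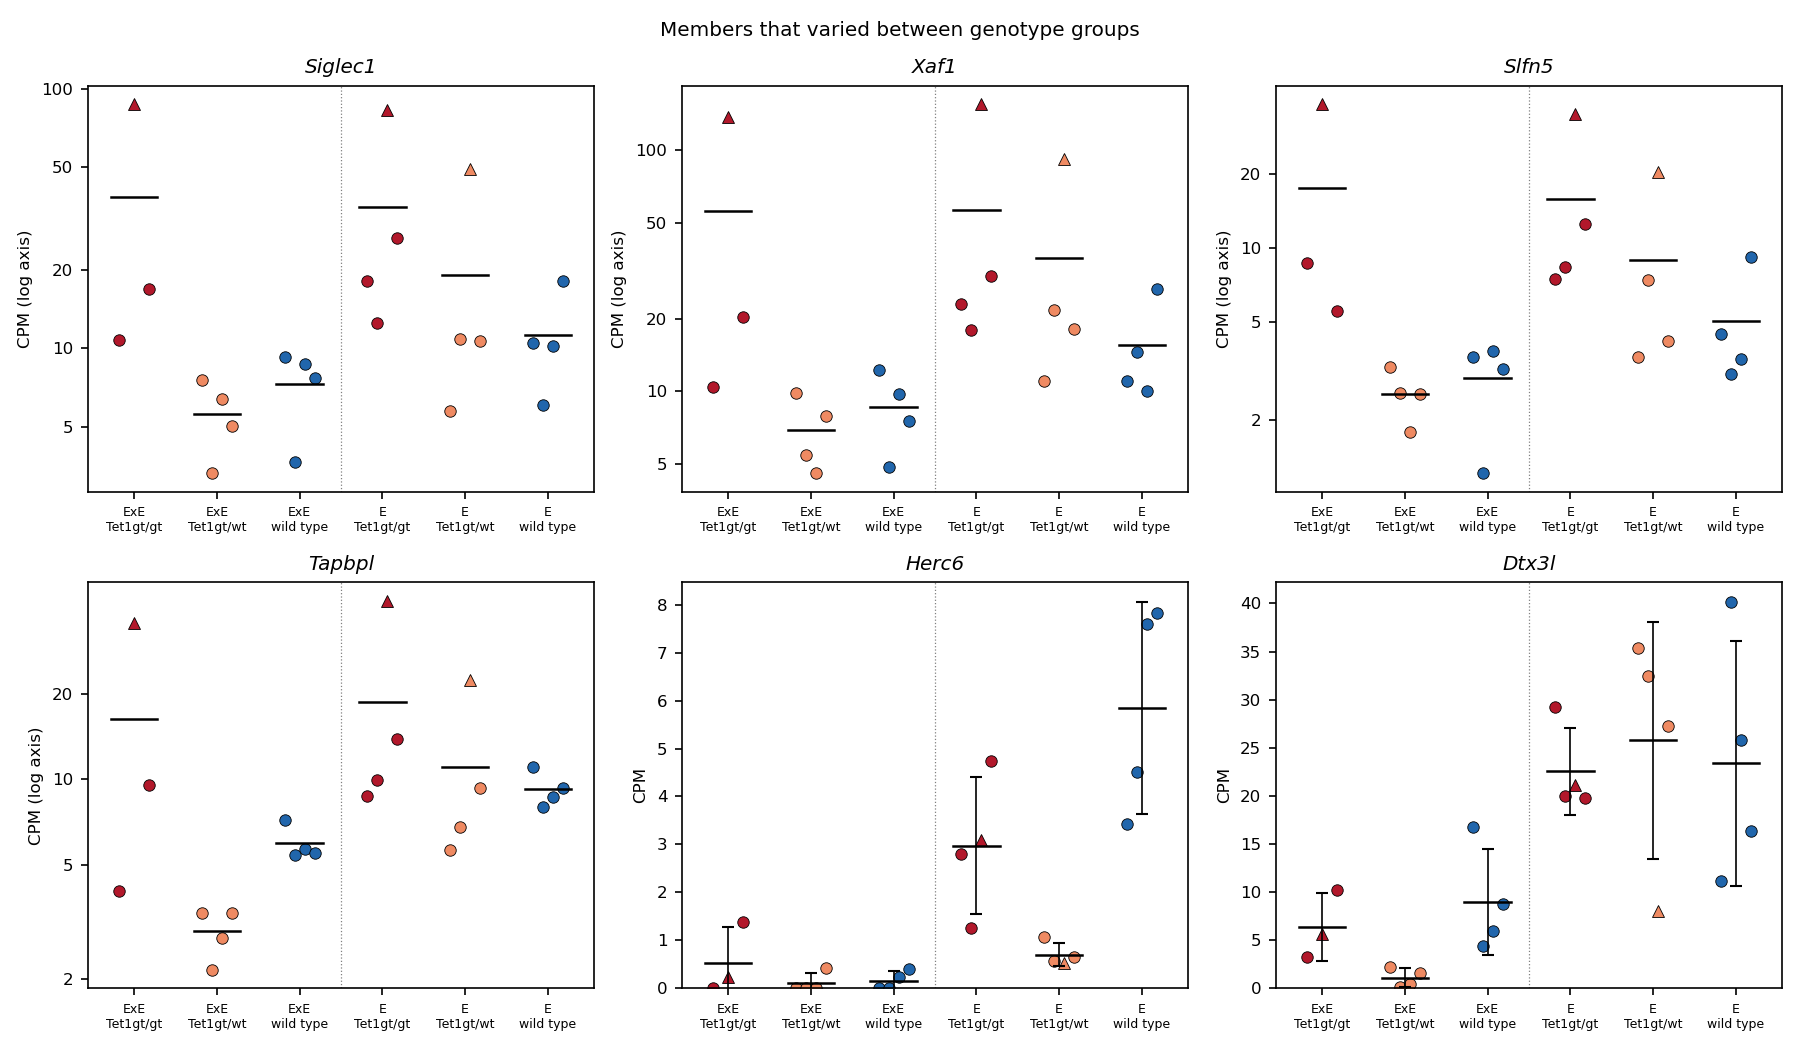
CPM in each library of Siglec1, Xaf1, Slfn5 and Tapbpl (log axes, group means as bars) and of Herc6 and Dtx3l (linear axes, group means with SD); triangles are the 3 libraries in which short and GC-rich transcripts read higher. The triangles are the highest values of Siglec1, Xaf1, Slfn5 and Tapbpl in both tissues, the E Tet1gt/wt values of Herc6 (0.523 to 1.06 CPM) lie below wild type (3.42 to 7.83 CPM), and the ExE Tet1gt/wt values of Dtx3l (0.144 to 2.19 CPM) lie below wild type (4.43 to 16.8 CPM).

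Other genes of the pathway were taken from a list of 118 names. Of these, 72 were tested between tissues, 19 were higher and 14 lower in ExE (edgeR adjusted p under 0.05, against 22.1% and 23.9% of all genes). Receptors and kinases were higher in 7 of 11 cases and lower in 0: Stat3 (log2 fold change 2.86 ± 0.26), Jak2 (2.46 ± 0.52), Ifngr2 (2.16 ± 0.31), Il10rb, Jak1, Ifnar2 and Ifngr1. Of the adaptors that pass on a sensor's signal, 4 of 7 tested were higher and 0 lower, among them Myd88 (2.62 ± 0.42), which relays Toll-like receptors. Other interferon-stimulated genes were lower in 11 and higher in 5 of 35 tested. The largest changes among them were in Irf2 (3.46 ± 0.39), a repressor of interferon targets, Irf8 (-3.41 ± 0.92), Lgals9 (3.25 ± 0.86), Ube2l6 (3.19 ± 0.52), which encodes the conjugating enzyme of ISG15, and Trim12c (-2.73 ± 0.48). Among MHC class I and peptide-loading genes, H2-D1 (1.10 ± 0.19) and H2-K1 (0.60 ± 0.17) were higher in ExE, in the same direction as B2m, and H2-M3 and H2-Q4 were lower. In the genotype comparisons 0 of the 64 tested pathway genes were called in E and 0 of 65 in ExE.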

How the data were processed

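For 23 libraries the authors deposited raw, unscaled read counts by gene in a single table. The series' design text names a SMARTer kit for amplification, 75-bp single-end reads, cutadapt (1.7.1) and FastX (0.0.13) for trimming, and ShortRead (1.16.3) for read filters. TopHat2 2.0.12 and the build mm10 (GRCm38) are named in the submitters' processing notes. No source used here gives the counting program, annotation, strand setting or treatment of multi-mapping reads. Of the 23725 lines, 4 that shared a symbol were left out, and 27 symbols had turned into dates.

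Counts were analysed in R 4.3.3 with edgeR 4.0.16: filterByExpr (minimum count 10, minimum total 15), TMM scaling, and the two-sided quasi-likelihood test, in 1 fit per tissue for genotypes and 1 fit of all libraries for tissues and for differences between tissues. The p-values were adjusted by Benjamini-Hochberg across every gene in the fit and called below 0.05. The prior count was 0.125 for log2 fold changes and 2 for log2 CPM levels. DESeq2 1.42.0, other scaling and filters, leaving out libraries and a block for the pool number were alternatives. The labels state that E and ExE pools of the same number share litters in 3 of 4 cases, so the numbers pair the tissues (correlations of same-numbered deviations -0.11 to 0.73). The edgeR step was tested on simulated counts.

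Members, gene lists and tests were chosen with earlier results of these data known. Named with values were the 5 members chosen for their variation, up to 12 of the others past the threshold between tissues by size of change, the 2 of smallest p in each genotype comparison against wild type, and up to 6 pathway genes; 1 other gene that the rule names is not reported here. Other named genes, such as Trim25, Bst2, Jak2, Myd88 and the MHC genes, were chosen after their values were seen. Promoters came from RefSeq (30 of 37 members matched), positions and transcripts from GENCODE M21 (37 of 37 matched).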

Additional observations from a re-analysis of the deposited data

Results flagged for a closer look

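In 17 of 103 pairs of a member and a group of 4 libraries, over 21 genes, 1 library lay far from the other 3. The cut-off of Dixon's test at 95% served only to pick these pairs out. Its chance rate of about 5% holds for normally distributed values and genes not chosen for their variation. The pairs included members chosen for their variation. Groups with counts in 1 library and 0 in the others pass the cut-off by construction. The number of pairs picked out is therefore not read as an excess over chance. Of the 17, 8 were in E Tet1gt/gt replicate 3 or E Tet1gt/wt replicate 4, which are among the libraries with the length and GC dependence. In E Tet1gt/gt replicate 3, Ifitm2 was at 190.3 CPM (98.2 to 103 in the others), Ifitm3 at 23.2 (12.3 to 13.6), Tapbpl at 42.2 (8.74 to 13.9) and Xaf1 at 154 (18 to 30.1). In E Tet1gt/wt replicate 4, Ifitm1 was at 11.7 CPM (4.47 to 4.99), Ifitm2 at 177 (99.4 to 109.9), Siglec1 at 49.1 (5.75 to 10.8) and Xaf1 at 91.3 (11.1 to 21.7).

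The other 9 lay in other libraries. Parp14 was at 6.87 CPM in E Tet1gt/gt replicate 2 (0.112 to 1.18 in the others) and at 3.94 CPM in E Tet1gt/wt replicate 2 (0 in the others). Dtx3l was at 29.3 CPM in E Tet1gt/gt replicate 1 (19.8 to 21.1), and Trim25 at 19.6 CPM in E Tet1gt/gt replicate 4 (27.3 to 28.7). In ExE Tet1gt/wt, Herc6 was at 0.427 CPM in replicate 5 and Ifit2 at 3.16 CPM in replicate 2, with 0 in the others. Ddx58 was at 1.76 CPM in ExE wild-type replicate 5 (0 to 0.12) and at 3.63 CPM in E wild-type replicate 2 (8.55 to 9.21), and Tapbpl at 7.20 CPM in ExE wild-type replicate 1 (5.43 to 5.72).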

How the results depend on the processing

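None of the tested members that the naming rule picked changed direction under the alternatives run. Of the fold changes described without a test, Siglec1 in E Tet1gt/wt (0.76) ranged from -0.30 to 1.10, and Dtx3l from -0.28 to 0.34 in E Tet1gt/gt (-0.04) and from -0.08 to 0.54 in E Tet1gt/wt (0.15), so these changed sign. The count of the 32 members called between tissues was 14, and 12 to 15 without 1 library, 15 with DESeq2, 15 without the filter on low counts, 14 with upper-quartile scaling and 15 without the 3 libraries with a length and GC dependence. Within genotypes it was 1 to 5 without 1 library in Tet1gt/gt, 6 to 9 in Tet1gt/wt and 2 to 5 in wild type. In Tet1gt/gt, where edgeR called 3, DESeq2 called 6 and edgeR called 5 without the 3 libraries. With the pool number as a replicate block the count was 14 between tissues, and 4 in Tet1gt/gt, 10 in Tet1gt/wt and 7 in wild type. Between genotypes the same numbers did not deviate together in all pairs (correlations -0.66 to 0.44), and with that block 0 members were called, as under all other alternatives.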
